A study of Mus musculus with 12 samples.

Results

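The genes of DNA replication were followed here as a set of 46: 7 of the replicative helicase (Mcm2 to Mcm7 and Mcm10), 4 of origin licensing (Orc1, Orc6, Cdc6, Cdt1), 5 that complete the active helicase (Cdc45, Gins1 to Gins4), 6 of the sliding clamp and its loader (Pcna, Rfc1 to Rfc5), 9 polymerase and primase subunits (Pola1, Pola2, Prim1, Prim2, Pold1, Pold2, Pold3, Pole, Pole2), 4 that process or cover DNA strands (Fen1, Lig1, Rpa1, Rpa2), 4 of nucleotide supply (Rrm1, Rrm2, Tyms, Tk1), 3 of chromatin copying (Chaf1a, Chaf1b, Uhrf1) and 4 E2F transcription factors (E2f1, E2f2, E2f7, E2f8). They were chosen by symbol, through array probe sets annotated to a single gene, and 46 of 46 were found among 19937 genes. Where a gene had several such probe sets, the one with the highest mean stood for it. The arrays measured newly synthesized RNA of mouse macrophages in 4 groups of 3. Bone marrow-derived macrophages (BMM) of C57BL/6 mice were kept in DMEM with 10% fetal calf serum and M-CSF. MPI-2, a single self-renewing macrophage line derived from fetal liver of C57BL/6 mice, was kept in RPMI with 10% serum and GM-CSF. Each was either mock-treated or exposed to lipopolysaccharide (LPS), the bacterial ligand of Toll-like receptor 4. All 4 groups received 4-thiouridine, a uridine analogue that marks RNA as it is made, for 60 min, and in the LPS groups labelling began 30 min into the exposure. The growth factor, the medium and a possible array batch run with the cell type and cannot be told apart from it. The ages of the animals were not given in the sources used here.

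As background, replication starts at origins that are licensed in G1, when the origin recognition complex, Cdc6 and Cdt1 load the Mcm2 to Mcm7 ring onto DNA, and it proceeds in S phase once Cdc45 and the GINS complex join that ring. Many genes of this machinery are transcribed at the G1/S transition under E2F factors, which the retinoblastoma family holds in check in resting cells. Macrophages that divide in response to M-CSF or GM-CSF express the set, and LPS is known to slow the division of cultured macrophages.

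The letters an E2F factor can recognise were looked up in the promoters of the set, because its genes are textbook E2F targets. RefSeq promoter sequences of GRCm38.p6, 250 bases before to 50 after the start, were found for 39 of the 46 members. The words TTTCCCGC, TTTCGCGC, TTTGCCGC and TTTGGCGC, read on both strands, occurred in 17 of these 39 (43.6%). Counted per promoter, since a gene can have several, they occurred in 17 of 46 member promoters (37%), against 2.26% of 32851 promoters of the same length. In the 250 upstream bases alone they occurred in 10 of 39 members (25.6%), which is 21.7% of member promoters, and in 1.86% of all promoters. The 6 windows of 80 upstream bases shown here, written 5′ to 3′ on the strand of the gene, belong to 3 genes of the helicase ring, a licensing gene, a GINS gene and an E2F gene, and capitals mark the words found. In Mcm5 the words of both strands overlap in a single run. Mcm6 also has overlapping words of both strands, at 110 to 103 and 106 to 99 bases before the start, outside the window shown.
Mcm5, chr8:75109324-75109403 (+ strand): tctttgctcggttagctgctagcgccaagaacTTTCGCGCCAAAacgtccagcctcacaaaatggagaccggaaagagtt
Mcm6, chr1:128359709-128359788 (- strand): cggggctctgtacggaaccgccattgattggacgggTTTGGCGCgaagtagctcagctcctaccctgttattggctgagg
Mcm7, chr5:138172005-138172084 (- strand): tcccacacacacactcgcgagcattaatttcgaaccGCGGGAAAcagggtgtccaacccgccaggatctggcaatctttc
Cdc6, chr11:98907977-98908056 (+ strand): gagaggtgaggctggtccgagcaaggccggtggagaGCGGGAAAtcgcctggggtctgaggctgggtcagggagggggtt
Gins3, chr8:95633479-95633558 (+ strand): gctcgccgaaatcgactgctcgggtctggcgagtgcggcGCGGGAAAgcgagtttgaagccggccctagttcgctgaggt
E2f7, chr10:110745205-110745284 (+ strand): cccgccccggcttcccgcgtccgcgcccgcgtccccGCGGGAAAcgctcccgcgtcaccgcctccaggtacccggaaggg
A match is a description of the sequence and not a measured binding site. The CCAAT box (CCAAT, both strands) was found in 25 of 39 members (64.1%), in 60.9% of member promoters and in 37.4% of all promoters. The 17 members with an E2F word and the 22 without had median differences between the cell types in mock of log2 2.10 and 2.02. Their median LPS changes were -0.54 and -0.35 in BMM and -0.55 and -0.49 in MPI-2.

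Values are log2 expression values of arrays and are compared within a gene, not between genes. Changes are limma estimates on the log2 scale with their standard error (SE), every adjusted p is limma's Benjamini-Hochberg value over all 19937 genes, and the threshold was 0.05. Sample titles speak of biological replicates but name neither cultures nor animals, and the tests therefore gauge a sample spread that may be partly technical. Arrays of a group correlated at r of 0.975 to 0.989 in BMM and 0.994 to 0.996 in MPI-2. BMM LPS replicate 3 and BMM mock replicate 1 had the lowest weights in limma's estimate of array quality, 0.32 and 0.41, against up to 2.17. Results that change without either are given with the genes. Those that change only with both left out are given with the processing. The 95th percentile of 1027 olfactory receptor genes, 3.36, served as the background level, and 46 of 46 members had a mean over the 12 arrays above it. By group, the means of Orc1, Gins1 and Prim1 were under it in BMM mock, and those of Orc1, Gins1, Rfc2, Prim1, Pole and Pole2 in BMM LPS. Changes of these genes that involve those groups are limited by background and may misstate the change in RNA. For Orc1, Gins1 and Prim1 the LPS change in BMM compares background-level signals and may not reflect RNA of the gene. The interquartile range of all values was 2.38 to 2.69 in BMM LPS, 2.78 to 2.88 in BMM mock, 2.95 to 3.04 in MPI-2 LPS and 3.06 to 3.21 in MPI-2 mock. Results after quantile normalization, which makes the distributions of the genes equal across arrays, are given with the alternatives. The part of the ranges in the results was not tested otherwise. All 10 macrophage markers lay above background in every group, and their summed linear level per array was 6714 to 7196 in BMM mock, 5041 to 5907 in BMM LPS, 4324 to 4672 in MPI-2 mock and 5199 to 5407 in MPI-2 LPS. Of 6 markers of alveolar-type macrophages 5 did so in BMM and 6 in MPI-2, with summed linear levels per array of 192 to 363 and 2878 to 4598. Among them Siglecf was lower in MPI-2 than in BMM (mean 3.39 against 3.94 in mock), and the others were higher. Summed neutrophil markers (8 genes) were 149 to 159 in MPI-2 LPS and 69 to 83 in the other groups. In MPI-2 LPS S100a8 had a mean of 6.57, while Ly6g, S100a9, Mpo, Ltf and Ngp were under background. Of 6 fibroblast markers 3 were above background in MPI-2 mock and 4 in the other groups, and their sum was 120 to 135 in MPI-2 mock and 77 to 100 in the others. Pdgfra had a mean of 6.13 in MPI-2 mock and 3.39 in BMM mock. Col1a1 (4.42 and 4.99), Col1a2 (3.71 and 4.09) and Col3a1 (3.34 and 3.97) were lower in MPI-2 mock than in BMM mock. Markers of B cells, T and NK cells, erythroid cells and hepatocytes had summed levels of 24 to 62 per list and array. The macrophage, alveolar-type, neutrophil and fibroblast sums move with cell type or with LPS, and their part in the results was not tested. Fewer dividing cells and less RNA per dividing cell cannot be told apart in such bulk samples.

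The replication genes were made at higher levels in MPI-2 than in BMM. Without LPS, 46 of 46 members were higher in MPI-2 (adjusted p under 0.05; 20.6% of all genes were called higher and 18% lower, and 33.2% of genes with a mean above background were called higher). The median difference was log2 2.01, against -0.10 over all genes, and 38 members differed by at least 2-fold (10.3% of all genes). The differences ran from log2 0.44 ± 0.13 (adjusted p = 0.0166) for Rpa1, the large subunit of the single-strand binding protein, to 3.64 ± 0.21 (adjusted p = 1.41e-09) for Rrm1, the large subunit of ribonucleotide reductase. Every mock MPI-2 array lay above every mock BMM array in 46 of 46 members, a pattern seen in 23% of all genes. With LPS in both, 43 members were higher in MPI-2 (22.5% of all genes higher, 21.6% lower), with a median of log2 2.04 against -0.14 over all genes (that median moved to -0.01 after cyclic loess), and 35 by at least 2-fold (12.2% of all genes). The 3 that did not pass were Pold3 (0.35 ± 0.15, adjusted p = 0.0669), Tk1 (0.20 ± 0.24, adjusted p = 0.509) and E2f8 (0.15 ± 0.21, adjusted p = 0.572). No member was lower in MPI-2 under either treatment, and none was lower at an unadjusted p under 0.05. In LPS the arrays did not overlap in 42 members (24.4% of all genes).

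**Figure D1:**
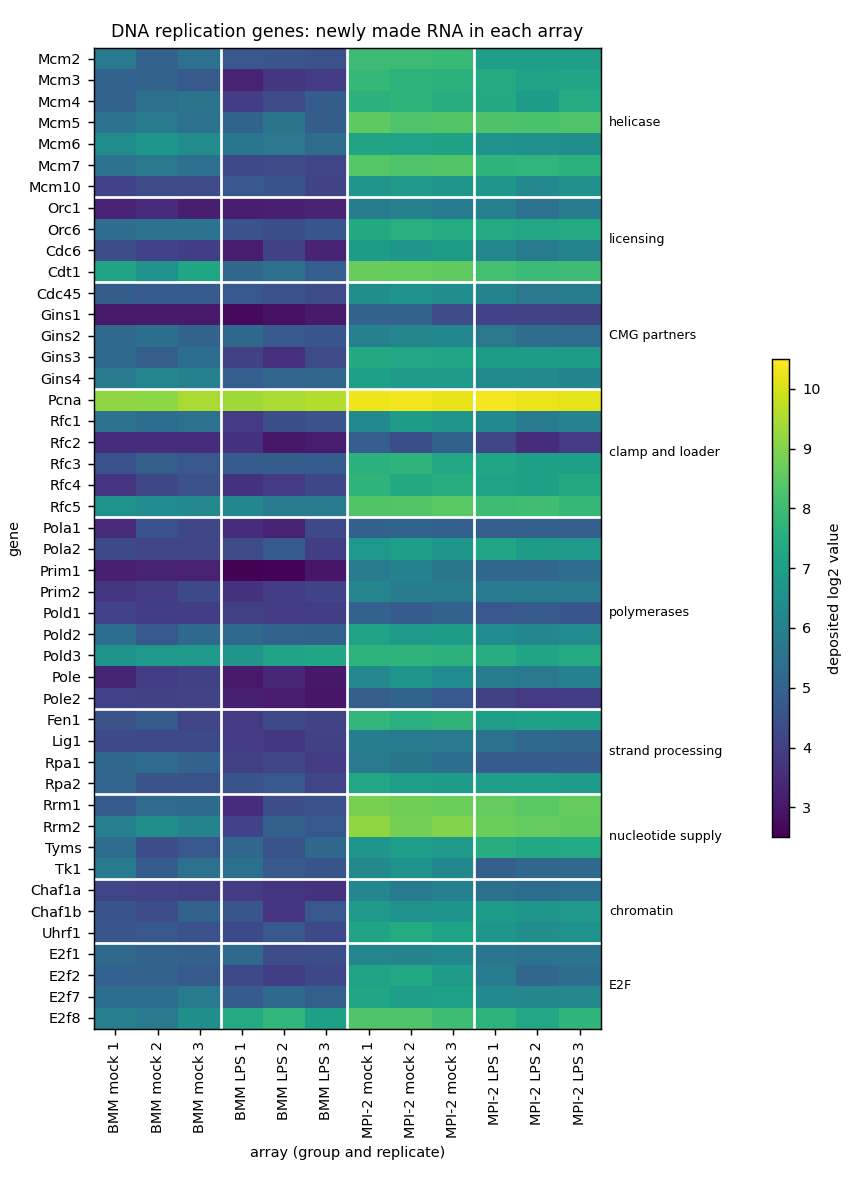
Deposited log2 value of each of the 46 replication genes (rows, ordered by role) in each of the 12 arrays (columns, by group), drawn without centring by gene. The MPI-2 mock arrays are above the BMM mock arrays in 46 of 46 rows.

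Across the set, the median of the 46 members was 4.85 to 5.02 in the BMM mock arrays, 4.29 to 4.39 in BMM LPS, 6.86 to 7.07 in MPI-2 mock and 6.36 to 6.66 in MPI-2 LPS. The order of the group means was the same in 35 members: highest in MPI-2 mock, then MPI-2 LPS, BMM mock and BMM LPS. In 5 members (Mcm10, Pcna, Rfc3, Pold3 and E2f8) it differed in having BMM LPS above BMM mock. For Pole2, Rpa1 and Tk1 the mean of BMM mock was above that of MPI-2 LPS, and for Pola2, Tyms and Chaf1b MPI-2 LPS was the group with the highest mean. Neighbours in this order are set apart by the tests given for each gene. The MPI-2 LPS arrays all lay above the BMM mock arrays in 39 members (84.8%) and in 21.8% of all genes, and the 7 exceptions were Mcm6, Gins2, Gins4, Rfc2, Pole2, Rpa1 and Tk1. The median difference between those groups was log2 1.56, which sets LPS-treated MPI-2 beside untreated BMM and is given without a test.

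**Figure D2:**
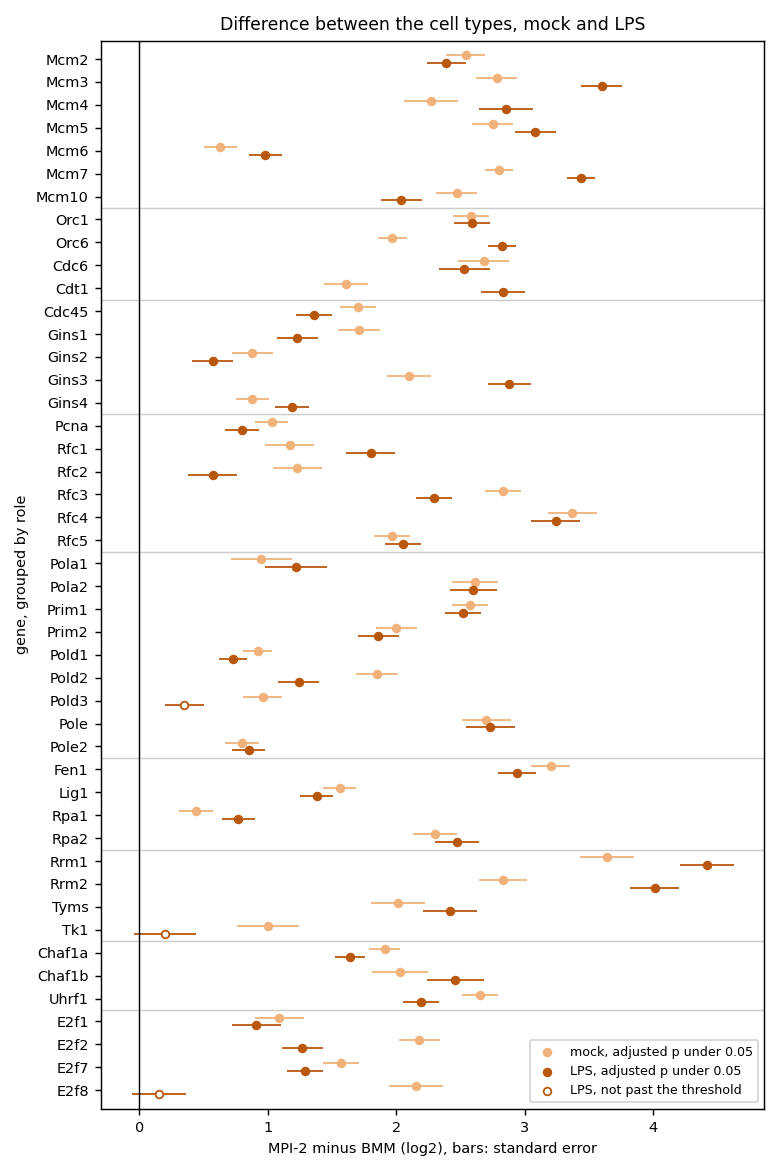
Difference between MPI-2 and BMM in log2 (x axis) with its SE for each of the 46 members (rows, by role), in mock and in LPS. The mock differences run from 0.44 to 3.64, and the LPS differences from 0.15 to 4.42.

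LPS lowered part of the set in each cell type. In BMM 21 members fell and 1, E2f8, rose (15.4% of all genes fell and 10.3% rose; 24.5% and 14.3% of genes above background), with a median change of log2 -0.40 against 0.04 over all genes. In MPI-2 25 members fell and 0 rose (9.58% and 5.17% of all genes; 15.5% and 8.02% of genes above background), with a median of -0.58 against 0.02. After cyclic loess of the values, 4 members (E2f8, Mcm10, Pola2 and Pold3) rose and 15 fell in BMM. In fits of the 2 groups alone, 16 members fell in BMM (2143 of 19937 genes) and 33 in MPI-2 (3172 genes). With array weights 18 and 33 fell (2781 and 3243 genes), and after quantile normalization 20 and 17 (2739 and 1447 genes). At an unadjusted p under 0.05, 1 member, Tyms, was higher in MPI-2. At least 2-fold falls were seen in 7 of 46 members in BMM (5.27% of all genes) and in 2 of 46 in MPI-2 (2.28%). These are 7 of the 21 falls in BMM and 2 of the 25 in MPI-2. Over all genes, 1050 of 3061 falls in BMM and 455 of 1910 in MPI-2 were at least 2-fold. The lower calls shared 13 members, which is 61.9% of those of BMM and 52% of those of MPI-2: Mcm2, Mcm6, Mcm7, Cdc6, Cdt1, Gins4, Prim1, Pole, Pole2, Lig1, Rpa1, E2f2 and E2f7. Calls in BMM alone were made for 8 (Mcm3, Mcm4, Orc6, Gins3, Rfc1, Rfc5, Rrm1, Rrm2) and calls of a fall in MPI-2 alone for 12 (Cdc45, Gins1, Gins2, Rfc2, Rfc3, Pold2, Fen1, Tk1, Chaf1a, Uhrf1, E2f1, E2f8). Of the 8 called in BMM alone, Mcm3, Mcm4, Gins3, Rfc1, Rfc5 and Rrm2 also passed as falls in MPI-2 in the fit of its 2 groups alone and with array weights. Passing in 1 cell type and not in the other does not show a difference, which is tested separately after the genes are described. The estimates were negative in both cell types for 38 members. The same joint counts were not made over all genes. The 13 shared calls and these 38 therefore describe the members and do not show a response particular to the set. Across the 46 genes the responses correlated at Pearson r 0.27 and Spearman rho 0.30; the responses share no arrays, and genes are not independent replicates.

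**Figure D3:**
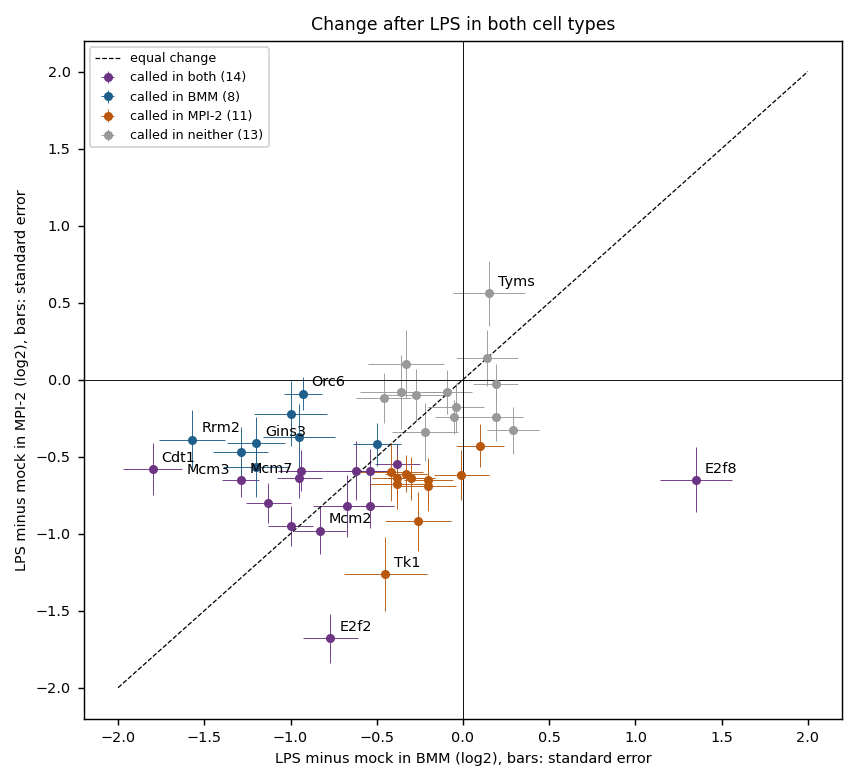
LPS change in BMM (x axis, log2) against LPS change in MPI-2 (y axis, log2) for the 46 members, coloured by the cell types in which the change passed, with SE bars and a dashed line of equal change. The points called in both include E2f8, which lies at 1.35 in BMM and -0.65 in MPI-2.

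Among the helicase genes, 5 of 7 fell with LPS in BMM and 3 of 7 in MPI-2 (24.5% and 15.5% of genes above background). Without LPS 7 of 7 were higher in MPI-2 than in BMM (33.2% of genes above background). These differences ran from log2 0.63 ± 0.13 for Mcm6 (adjusted p = 0.00133) to 2.80 ± 0.11 for Mcm7 (adjusted p = 2.70e-11). Each role holds few genes, and no role was tested against these shares. Mcm2 to Mcm7 encode the ring that unwinds DNA, and Mcm10 a factor that helps to activate it. Mcm2 gave 5.74, 5.03 and 5.48 in BMM mock, 4.66, 4.62 and 4.48 in BMM LPS, 7.98, 7.97 and 7.93 in MPI-2 mock and 6.98, 6.98 and 6.99 in MPI-2 LPS. LPS lowered Mcm2 in BMM (log2 -0.83 ± 0.15, adjusted p = 5.51e-04) and in MPI-2 (-0.98 ± 0.15, adjusted p = 2.58e-04), and every LPS array lay below every mock array in both. Mcm3 gave 5.03, 5.08 and 4.72 in BMM mock, 3.29, 3.76 and 3.89 in BMM LPS, 7.84, 7.68 and 7.65 in MPI-2 mock and 7.39, 7.11 and 7.23 in MPI-2 LPS. Mcm3 fell with LPS in BMM (log2 -1.29 ± 0.16, adjusted p = 1.31e-05) and did not pass in MPI-2 (-0.47 ± 0.16, adjusted p = 0.059), and every LPS array lay below every mock array in both. Mcm5 gave 5.56, 5.83 and 5.52 in BMM mock, 5.07, 5.59 and 4.87 in BMM LPS, 8.51, 8.29 and 8.35 in MPI-2 mock and 8.26, 8.21 and 8.30 in MPI-2 LPS. Neither estimate for Mcm5 passed (log2 -0.46 ± 0.16 in BMM and -0.12 ± 0.16 in MPI-2, adjusted p = 0.0501 and 0.769), and the LPS and mock arrays overlapped in both. Mcm6 gave 6.40, 6.72 and 6.35 in BMM mock, 5.64, 5.68 and 5.32 in BMM LPS, 7.18, 7.10 and 7.08 in MPI-2 mock and 6.61, 6.50 and 6.49 in MPI-2 LPS. For Mcm6, every LPS array lay below every mock array in both, and the gene fell in BMM (log2 -0.94 ± 0.13, adjusted p = 6.03e-05) as well as in MPI-2 (-0.59 ± 0.13, adjusted p = 0.00599). Mcm6, although part of the same ring, had the smallest difference between the cell types of these 7 genes. Mcm7 gave 5.56, 5.66 and 5.42 in BMM mock, 4.28, 4.32 and 4.17 in BMM LPS, 8.39, 8.29 and 8.35 in MPI-2 mock and 7.70, 7.76 and 7.62 in MPI-2 LPS. The fall of Mcm7 with LPS was -1.29 ± 0.11 in BMM (adjusted p = 3.46e-07) and -0.65 ± 0.11 in MPI-2 (adjusted p = 7.31e-04), and every LPS array lay below every mock array in both. Mcm10 gave 4.11, 4.33 and 4.36 in BMM mock, 4.67, 4.58 and 4.13 in BMM LPS, 6.66, 6.84 and 6.73 in MPI-2 mock and 6.74, 6.25 and 6.51 in MPI-2 LPS. For Mcm10, the LPS and mock arrays overlapped in both, and LPS estimates passed in neither cell type (log2 0.19 ± 0.16 in BMM and -0.24 ± 0.16 in MPI-2, adjusted p = 0.436 and 0.442). Mcm10 was nonetheless above BMM in MPI-2 in both treatments (2.47 ± 0.16, adjusted p = 5.52e-09 and 2.04 ± 0.16, adjusted p = 3.96e-08). Mcm4 had group means of 5.34 ± 0.31 in BMM mock, 4.39 ± 0.46 in BMM LPS, 7.61 ± 0.11 in MPI-2 mock and 7.24 ± 0.26 in MPI-2 LPS (SD, n = 3). LPS lowered Mcm4 in BMM (log2 -0.95 ± 0.21, adjusted p = 0.00291). In MPI-2 Mcm4 had an estimate of -0.37 ± 0.21, which did not pass (adjusted p = 0.335), and every LPS array lay below every mock array in both. The call of Mcm6 between the cell types in mock was lost after cyclic loess or after quantile normalization (0.27 to 0.31). A change that missed the threshold with all 12 arrays passed it for Mcm5 in BMM without BMM LPS array 2 (-0.66) and Mcm3 in MPI-2 without BMM LPS arrays 1 and 3 in turn (-0.47).

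Of the licensing genes 3 of 4 fell with LPS in BMM and 2 of 4 in MPI-2 (24.5% and 15.5% of genes above background). Without LPS 4 of 4 were higher in MPI-2, from log2 1.61 ± 0.17 for Cdt1 (adjusted p = 1.10e-06) to 2.68 ± 0.20 for Cdc6 (adjusted p = 3.07e-08). Orc1 and Orc6 are subunits of the origin recognition complex, which together with Cdc6 and Cdt1 loads the helicase onto DNA. Orc1 gave 3.25, 3.44 and 3.17 in BMM mock, 3.10, 3.20 and 3.29 in BMM LPS, 5.90, 5.97 and 5.75 in MPI-2 mock and 5.96, 5.52 and 5.88 in MPI-2 LPS. Neither estimate for Orc1 passed (log2 -0.09 ± 0.14 in BMM and -0.08 ± 0.14 in MPI-2, adjusted p = 0.684 and 0.832), and the LPS and mock arrays overlapped in both. The BMM arrays of Orc1 lay about the background level, which limits any change seen there. Orc6 gave 5.37, 5.47 and 5.55 in BMM mock, 4.54, 4.41 and 4.65 in BMM LPS, 7.36, 7.52 and 7.43 in MPI-2 mock and 7.38, 7.28 and 7.39 in MPI-2 LPS. For Orc6, the LPS arrays lay below the mock arrays in BMM but overlapped them in MPI-2, and the fall passed in BMM (log2 -0.93 ± 0.11, adjusted p = 1.32e-05) but not in MPI-2 (-0.09 ± 0.11, adjusted p = 0.775). Cdc6 gave 4.38, 4.12 and 3.98 in BMM mock, 3.14, 4.05 and 3.28 in BMM LPS, 6.93, 6.72 and 6.87 in MPI-2 mock and 6.21, 5.79 and 6.07 in MPI-2 LPS. LPS lowered Cdc6 in BMM (log2 -0.67 ± 0.20, adjusted p = 0.0218) and in MPI-2 (-0.82 ± 0.20, adjusted p = 0.0105), and the LPS arrays lay below the mock arrays in MPI-2 but overlapped them in BMM. Cdt1 gave 7.17, 6.61 and 7.19 in BMM mock, 5.21, 5.45 and 4.90 in BMM LPS, 8.64, 8.60 and 8.54 in MPI-2 mock and 8.11, 7.96 and 7.97 in MPI-2 LPS. For Cdt1, every LPS array lay below every mock array in both, and the gene fell in BMM (log2 -1.80 ± 0.17, adjusted p = 6.42e-07) as well as in MPI-2 (-0.58 ± 0.17, adjusted p = 0.0256). The change of Cdt1 in BMM was the largest fall of the 46 genes in that cell type. The call of Cdc6 in BMM was lost without BMM mock array 1 or BMM LPS arrays 1 and 3 in turn (-0.56 to -0.50) and in a fit of the 2 groups alone, after cyclic loess, with array weights or with BMM mock array 1 and BMM LPS array 3 both left out (-0.67 to -0.41). The call of Cdc6 in MPI-2 was lost without MPI-2 mock array 1 or MPI-2 LPS array 2 (-0.77 to -0.70) and after quantile normalization (-0.70). The call of Cdt1 in MPI-2 was lost without MPI-2 mock arrays 1, 2 and 3 in turn or MPI-2 LPS arrays 2 and 3 in turn (-0.61 to -0.55).

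Cdc45 and the 4 GINS genes, whose products turn the loaded ring into the active helicase, were higher in MPI-2 without LPS, from log2 0.88 ± 0.16 for Gins2 (adjusted p = 3.96e-04) to 2.10 ± 0.17 for Gins3 (adjusted p = 7.85e-08). With LPS 2 of 5 fell in BMM and 4 of 5 in MPI-2 (24.5% and 15.5% of genes above background). Gins1 gave 3.08, 3.09 and 3.08 in BMM mock, 2.69, 2.87 and 3.08 in BMM LPS, 5.0, 5.03 and 4.36 in MPI-2 mock and 4.11, 4.15 and 4.06 in MPI-2 LPS. Gins1 fell with LPS in MPI-2 (log2 -0.69 ± 0.16, adjusted p = 0.00809) and did not pass in BMM (-0.20 ± 0.16, adjusted p = 0.412), and the LPS arrays lay below the mock arrays in MPI-2 but overlapped them in BMM. Gins1 was under background in both BMM groups. Gins2 gave 5.27, 5.40 and 5.05 in BMM mock, 5.21, 4.74 and 4.64 in BMM LPS, 5.99, 6.13 and 6.23 in MPI-2 mock and 5.66, 5.36 and 5.29 in MPI-2 LPS. For Gins2, the LPS arrays lay below the mock arrays in MPI-2 but overlapped them in BMM, and the fall passed in MPI-2 (log2 -0.68 ± 0.16, adjusted p = 0.00813) but not in BMM (-0.38 ± 0.16, adjusted p = 0.106). Gins3 gave 5.27, 4.92 and 5.38 in BMM mock, 4.08, 3.58 and 4.32 in BMM LPS, 7.37, 7.31 and 7.19 in MPI-2 mock and 6.86, 6.92 and 6.86 in MPI-2 LPS. LPS lowered Gins3 in BMM (log2 -1.20 ± 0.17, adjusted p = 6.36e-05). In MPI-2 Gins3 had an estimate of -0.41 ± 0.17, which did not pass (adjusted p = 0.146), and every LPS array lay below every mock array in both. Gins4 had group means of 5.99 ± 0.15 in BMM mock, 5.05 ± 0.13 in BMM LPS, 6.87 ± 0.12 in MPI-2 mock and 6.23 ± 0.12 in MPI-2 LPS (SD, n = 3). The fall of Gins4 with LPS was -0.95 ± 0.13 in BMM (adjusted p = 3.44e-05) and -0.64 ± 0.13 in MPI-2 (adjusted p = 0.00232), and every LPS array lay below every mock array in both. Cdc45 had group means of 4.81 ± 0.05 in BMM mock, 4.51 ± 0.19 in BMM LPS, 6.51 ± 0.10 in MPI-2 mock and 5.87 ± 0.20 in MPI-2 LPS (SD, n = 3). LPS lowered Cdc45 in MPI-2 (log2 -0.64 ± 0.14, adjusted p = 0.00374), and every LPS array lay below every mock array in both. The estimate for Cdc45 in BMM did not pass (-0.30 ± 0.14, adjusted p = 0.123). The call of Gins1 in MPI-2 was lost without MPI-2 mock arrays 1 and 2 in turn (-0.58 to -0.57). The call of Gins2 in MPI-2 was lost after quantile normalization (-0.46). The call of Gins2 between the cell types in LPS was lost without MPI-2 LPS array 1 (0.46) and after cyclic loess or after quantile normalization (0.23 to 0.25). Leaving out 1 array added calls for Gins2 in BMM without BMM LPS array 1 (-0.55).

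Of the 6 clamp and clamp loader genes, Rfc1 and Rfc5 fell with LPS in BMM, and Rfc2 and Rfc3 in MPI-2. Of genes above background 24.5% fell in BMM and 15.5% in MPI-2. For the differences of responses 0 of 6 passed (limma, 3 at an unadjusted p under 0.05). Without LPS 6 of 6 were higher in MPI-2, from log2 1.03 ± 0.13 for Pcna (adjusted p = 7.22e-06) to 3.37 ± 0.19 for Rfc4 (adjusted p = 1.16e-09). Pcna encodes the ring that tethers polymerases to DNA, and Rfc1 to Rfc5 the complex that loads it. Pcna gave 9.18, 9.14 and 9.49 in BMM mock, 9.36, 9.47 and 9.57 in BMM LPS, 10.30, 10.37 and 10.23 in MPI-2 mock and 10.38, 10.25 and 10.18 in MPI-2 LPS. For Pcna, the LPS and mock arrays overlapped in both, and LPS estimates passed in neither cell type (log2 0.19 ± 0.13 in BMM and -0.03 ± 0.13 in MPI-2, adjusted p = 0.301 and 0.944). A second probe set of Pcna gave LPS changes of 0.63 in BMM and -0.17 in MPI-2, and differences between the cell types of 1.95 in mock and 1.14 in LPS. Rfc1 gave 5.54, 5.39 and 5.47 in BMM mock, 3.85, 4.41 and 4.55 in BMM LPS, 6.32, 6.93 and 6.67 in MPI-2 mock and 6.33, 5.83 and 6.06 in MPI-2 LPS. Rfc1 fell with LPS in BMM (log2 -1.20 ± 0.19, adjusted p = 1.87e-04) and did not pass in MPI-2 (-0.57 ± 0.19, adjusted p = 0.0625), and the LPS arrays lay below the mock arrays in BMM but overlapped them in MPI-2. Rfc2 gave 3.56, 3.50 and 3.55 in BMM mock, 3.68, 3.00 and 3.15 in BMM LPS, 4.90, 4.43 and 4.98 in MPI-2 mock and 4.17, 3.55 and 3.83 in MPI-2 LPS. LPS lowered Rfc2 in MPI-2 (log2 -0.92 ± 0.19, adjusted p = 0.00373), and the LPS arrays lay below the mock arrays in MPI-2 but overlapped them in BMM. The estimate for Rfc2 in BMM did not pass (-0.26 ± 0.19, adjusted p = 0.372). Rfc3 gave 4.53, 4.92 and 4.68 in BMM mock, 4.75, 4.85 and 4.84 in BMM LPS, 7.61, 7.71 and 7.29 in MPI-2 mock and 7.21, 7.06 and 7.04 in MPI-2 LPS. Rfc3 fell with LPS in MPI-2 (log2 -0.43 ± 0.14, adjusted p = 0.0465) and did not pass in BMM (0.10 ± 0.14, adjusted p = 0.641), and the LPS arrays lay below the mock arrays in MPI-2 but overlapped them in BMM. Rfc4 gave 3.70, 4.22 and 4.48 in BMM mock, 3.67, 3.86 and 4.22 in BMM LPS, 7.69, 7.36 and 7.47 in MPI-2 mock and 7.10, 7.04 and 7.35 in MPI-2 LPS. Neither estimate for Rfc4 passed (log2 -0.22 ± 0.19 in BMM and -0.34 ± 0.19 in MPI-2, adjusted p = 0.463 and 0.324), and the LPS arrays lay below the mock arrays in MPI-2 but overlapped them in BMM. Rfc4 stood high in MPI-2 under both treatments (3.37 ± 0.19, adjusted p = 1.16e-09 and 3.24 ± 0.19, adjusted p = 1.37e-09 above BMM). Rfc5 gave 6.62, 6.37 and 6.25 in BMM mock, 6.20, 5.75 and 5.79 in BMM LPS, 8.32, 8.36 and 8.46 in MPI-2 mock and 7.99, 8.06 and 7.83 in MPI-2 LPS. For Rfc5, every LPS array lay below every mock array in both, and the fall passed in BMM (log2 -0.50 ± 0.14, adjusted p = 0.0167) but not in MPI-2 (-0.42 ± 0.14, adjusted p = 0.0645). The call of Rfc5 in BMM was lost without BMM mock array 1 or BMM LPS arrays 2 and 3 in turn (-0.44 to -0.40) and in a fit of the 2 groups alone, after cyclic loess, after quantile normalization, with array weights or with BMM mock array 1 and BMM LPS array 3 both left out (-0.50 to -0.30). The call of Rfc3 in MPI-2 was lost without BMM mock array 3, MPI-2 mock arrays 1 and 2 in turn, BMM LPS arrays 1 and 2 in turn or MPI-2 LPS arrays 1, 2 and 3 in turn (-0.49 to -0.35) and after cyclic loess, after quantile normalization or with a trended prior variance (-0.43 to -0.30). The call of Rfc2 between the cell types in LPS was lost without BMM LPS arrays 2 and 3 in turn or MPI-2 LPS arrays 1 and 3 in turn (0.41 to 0.58) and with array weights or with BMM mock array 1 and BMM LPS array 3 both left out (0.51 to 0.54). A change that missed the threshold with all 12 arrays passed it for Rfc1 in MPI-2 without MPI-2 mock array 1, BMM LPS arrays 1 and 3 in turn or MPI-2 LPS array 1 (-0.73 to -0.57) and Rfc5 in MPI-2 without BMM mock array 1 or BMM LPS array 1 (-0.42).

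Polymerase and primase genes were higher in MPI-2 in 9 of 9 cases without LPS, from log2 0.80 ± 0.13 for Pole2 (adjusted p = 8.89e-05) to 2.70 ± 0.19 for Pole (adjusted p = 1.36e-08). With LPS 3 of 9 fell in BMM and 4 of 9 in MPI-2 (24.5% and 15.5% of genes above background). Pola1 and Pola2 belong to polymerase alpha, which with the primase subunits Prim1 and Prim2 starts new strands. Pola1 gave 3.45, 4.51 and 4.19 in BMM mock, 3.51, 3.31 and 4.25 in BMM LPS, 4.97, 5.08 and 4.95 in MPI-2 mock and 4.90, 4.93 and 4.91 in MPI-2 LPS. Neither estimate for Pola1 passed (log2 -0.36 ± 0.24 in BMM and -0.08 ± 0.24 in MPI-2, adjusted p = 0.316 and 0.916), and the LPS arrays lay below the mock arrays in MPI-2 but overlapped them in BMM. Pola2 gave 4.30, 4.18 and 4.18 in BMM mock, 4.33, 4.78 and 3.97 in BMM LPS, 6.76, 6.97 and 6.74 in MPI-2 mock and 7.22, 6.85 and 6.82 in MPI-2 LPS. For Pola2, the LPS and mock arrays overlapped in both, and LPS estimates passed in neither cell type (log2 0.14 ± 0.18 in BMM and 0.14 ± 0.18 in MPI-2, adjusted p = 0.61 and 0.758). Prim1 had group means of 3.24 ± 0.04 in BMM mock, 2.70 ± 0.24 in BMM LPS, 5.81 ± 0.20 in MPI-2 mock and 5.22 ± 0.12 in MPI-2 LPS (SD, n = 3). LPS lowered Prim1 in BMM (log2 -0.54 ± 0.14, adjusted p = 0.0107) and in MPI-2 (-0.59 ± 0.14, adjusted p = 0.00939), and every LPS array lay below every mock array in both. Prim1 was under background in both BMM groups. Prim2 had group means of 3.96 ± 0.29 in BMM mock, 3.92 ± 0.22 in BMM LPS, 5.96 ± 0.16 in MPI-2 mock and 5.78 ± 0.04 in MPI-2 LPS (SD, n = 3). For Prim2, the LPS arrays lay below the mock arrays in MPI-2 but overlapped them in BMM, and LPS estimates passed in neither cell type (log2 -0.04 ± 0.16 in BMM and -0.18 ± 0.16 in MPI-2, adjusted p = 0.897 and 0.597). Pold1, Pold2 and Pold3 encode subunits of polymerase delta, which copies the lagging strand. Pold1 had group means of 4.02 ± 0.08 in BMM mock, 3.97 ± 0.04 in BMM LPS, 4.94 ± 0.10 in MPI-2 mock and 4.70 ± 0.06 in MPI-2 LPS (SD, n = 3). Neither estimate for Pold1 passed (log2 -0.05 ± 0.11 in BMM and -0.24 ± 0.11 in MPI-2, adjusted p = 0.797 and 0.187), and the LPS arrays lay below the mock arrays in MPI-2 but overlapped them in BMM. Pold2 gave 5.38, 4.69 and 5.24 in BMM mock, 5.28, 5.02 and 4.98 in BMM LPS, 7.12, 6.84 and 6.90 in MPI-2 mock and 6.40, 6.24 and 6.35 in MPI-2 LPS. For Pold2, the LPS arrays lay below the mock arrays in MPI-2 but overlapped them in BMM, and the fall passed in MPI-2 (log2 -0.62 ± 0.16, adjusted p = 0.016) but not in BMM (-0.01 ± 0.16, adjusted p = 0.963). Pold3 gave 6.58, 6.78 and 6.79 in BMM mock, 6.67, 7.11 and 7.23 in BMM LPS, 7.68, 7.71 and 7.65 in MPI-2 mock and 7.47, 7.18 and 7.40 in MPI-2 LPS. For Pold3, the LPS arrays lay below the mock arrays in MPI-2 but overlapped them in BMM, and LPS estimates passed in neither cell type (log2 0.29 ± 0.15 in BMM and -0.33 ± 0.15 in MPI-2, adjusted p = 0.176 and 0.181). Pole and Pole2 encode the catalytic and the second subunit of polymerase epsilon, which copies the leading strand. Pole gave 3.32, 3.92 and 4.05 in BMM mock, 3.06, 3.37 and 3.00 in BMM LPS, 6.26, 6.74 and 6.39 in MPI-2 mock and 5.90, 5.69 and 6.03 in MPI-2 LPS. For Pole, the LPS arrays lay below the mock arrays in MPI-2 but overlapped them in BMM, and the gene fell in BMM (log2 -0.62 ± 0.19, adjusted p = 0.0237) as well as in MPI-2 (-0.59 ± 0.19, adjusted p = 0.0485). Pole2 gave 4.11, 4.04 and 4.14 in BMM mock, 3.19, 3.15 and 2.97 in BMM LPS, 4.93, 5.08 and 4.69 in MPI-2 mock and 4.04, 3.87 and 3.95 in MPI-2 LPS. The fall of Pole2 with LPS was -1.0 ± 0.13 in BMM (adjusted p = 1.83e-05) and -0.95 ± 0.13 in MPI-2 (adjusted p = 7.34e-05), and every LPS array lay below every mock array in both. The call of Prim1 in BMM was lost after cyclic loess (-0.42). The call of Pole in BMM was lost without BMM mock arrays 2 and 3 in turn or BMM LPS arrays 1 and 3 in turn (-0.58 to -0.48) and in a fit of the 2 groups alone or after cyclic loess (-0.62 to -0.39). The call of Prim1 in MPI-2 was lost without MPI-2 mock array 2 or MPI-2 LPS array 2 (-0.54 to -0.48) and after quantile normalization (-0.35). The call of Pold2 in MPI-2 was lost without MPI-2 mock array 1 or MPI-2 LPS array 2 (-0.58 to -0.54) and after cyclic loess or after quantile normalization (-0.52 to -0.48). The call of Pole in MPI-2 was lost without MPI-2 mock arrays 1, 2 and 3 in turn, BMM LPS array 1 or MPI-2 LPS arrays 1, 2 and 3 in turn (-0.69 to -0.45) and after cyclic loess, after quantile normalization or with a trended prior variance (-0.59 to -0.44). Calls that appeared when 1 array was left out were Pola1 in BMM without BMM mock array 1 or BMM LPS array 3 (-0.66 to -0.64), Pold3 in BMM without BMM LPS array 1 (0.46) and Pold3 between the cell types in LPS without BMM LPS array 3 (0.46).

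Of the genes that process or cover single strands, 2 of 4 fell with LPS in BMM and 3 of 4 in MPI-2. Of genes above background 24.5% and 15.5% did so. Fen1 trims the flaps of Okazaki fragments, Lig1 seals them, and Rpa1 and Rpa2 coat single-stranded DNA. Without LPS 4 of 4 were higher in MPI-2, from log2 0.44 ± 0.13 for Rpa1 (adjusted p = 0.0166) to 3.20 ± 0.15 for Fen1 (adjusted p = 1.79e-10). Fen1 gave 4.48, 4.76 and 4.17 in BMM mock, 3.86, 4.27 and 4.14 in BMM LPS, 7.77, 7.53 and 7.71 in MPI-2 mock and 6.99, 7.08 and 7.03 in MPI-2 LPS. LPS lowered Fen1 in MPI-2 (log2 -0.64 ± 0.15, adjusted p = 0.00851), and the LPS arrays lay below the mock arrays in MPI-2 but overlapped them in BMM. The estimate for Fen1 in BMM did not pass (-0.38 ± 0.15, adjusted p = 0.0822). Rpa1 gave 5.19, 5.30 and 5.0 in BMM mock, 4.02, 4.17 and 3.90 in BMM LPS, 5.81, 5.62 and 5.38 in MPI-2 mock and 4.80, 4.82 and 4.79 in MPI-2 LPS. For Rpa1, every LPS array lay below every mock array in both, and the gene fell in BMM (log2 -1.13 ± 0.13, adjusted p = 9.34e-06) as well as in MPI-2 (-0.80 ± 0.13, adjusted p = 5.74e-04). Rpa1 had the smallest difference between the cell types of the 46 genes without LPS. Rpa2 gave 5.11, 4.54 and 4.59 in BMM mock, 4.58, 4.67 and 4.18 in BMM LPS, 7.29, 6.98 and 6.86 in MPI-2 mock and 6.95, 6.96 and 6.92 in MPI-2 LPS. Neither estimate for Rpa2 passed (log2 -0.27 ± 0.17 in BMM and -0.10 ± 0.17 in MPI-2, adjusted p = 0.287 and 0.841), and the LPS and mock arrays overlapped in both. Lig1 had group means of 4.29 ± 0.00 in BMM mock, 3.91 ± 0.15 in BMM LPS, 5.84 ± 0.05 in MPI-2 mock and 5.29 ± 0.20 in MPI-2 LPS (SD, n = 3). LPS lowered Lig1 in BMM (log2 -0.38 ± 0.13, adjusted p = 0.037) and in MPI-2 (-0.55 ± 0.13, adjusted p = 0.00595), and every LPS array lay below every mock array in both. The call of Lig1 in BMM was lost without BMM mock arrays 1, 2 and 3 in turn, MPI-2 mock arrays 1 and 2 in turn, BMM LPS arrays 1 and 2 in turn or MPI-2 LPS array 2 (-0.38 to -0.32) and in a fit of the 2 groups alone, after cyclic loess, with a trended prior variance or with array weights (-0.41 to -0.15). The call of Lig1 in MPI-2 was lost after quantile normalization (-0.32). The call of Rpa1 between the cell types in mock was lost without BMM mock array 3 or MPI-2 mock arrays 1 and 2 in turn (0.34 to 0.43) and after quantile normalization (0.16). Leaving out 1 array added calls for Fen1 in BMM without BMM mock array 3 or BMM LPS array 2 (-0.53 to -0.47).

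The genes of nucleotide supply differed widely in the LPS comparison between the cell types: Rrm1 and Rrm2 were higher in MPI-2 (log2 4.42 ± 0.21, adjusted p = 1.09e-10 and 4.01 ± 0.19, adjusted p = 9.09e-11), and Tk1 did not pass. Rrm1 and Rrm2 form ribonucleotide reductase, which makes deoxyribonucleotides, Tyms makes thymidylate, and Tk1 salvages thymidine. Rrm1 and Rrm2 fell in BMM and Tk1 in MPI-2 (24.5% and 15.5% of genes above background fell). Rrm1 gave 4.80, 5.30 and 5.26 in BMM mock, 3.51, 4.38 and 4.48 in BMM LPS, 8.87, 8.75 and 8.68 in MPI-2 mock and 8.57, 8.46 and 8.60 in MPI-2 LPS. LPS lowered Rrm1 in BMM (log2 -1.0 ± 0.21, adjusted p = 0.00193). In MPI-2 Rrm1 had an estimate of -0.22 ± 0.21, which did not pass (adjusted p = 0.65), and every LPS array lay below every mock array in both. Rrm2 gave 5.95, 6.45 and 6.08 in BMM mock, 4.12, 4.94 and 4.71 in BMM LPS, 9.16, 8.84 and 8.97 in MPI-2 mock and 8.68, 8.57 and 8.54 in MPI-2 LPS. Rrm2 fell with LPS in BMM (log2 -1.57 ± 0.19, adjusted p = 9.56e-06) and did not pass in MPI-2 (-0.39 ± 0.19, adjusted p = 0.221), and every LPS array lay below every mock array in both. Tyms gave 5.35, 4.39 and 4.68 in BMM mock, 5.15, 4.57 and 5.16 in BMM LPS, 6.67, 6.99 and 6.79 in MPI-2 mock and 7.47, 7.28 and 7.39 in MPI-2 LPS. For Tyms, the LPS arrays lay above the mock arrays in MPI-2 but overlapped them in BMM, and LPS estimates passed in neither cell type (log2 0.15 ± 0.21 in BMM and 0.56 ± 0.21 in MPI-2, adjusted p = 0.662 and 0.104). Tyms was the member with the highest LPS estimate in MPI-2. Tk1 gave 5.80, 4.83 and 5.48 in BMM mock, 5.46, 4.73 and 4.58 in BMM LPS, 6.33, 6.57 and 6.22 in MPI-2 mock and 4.92, 5.21 and 5.23 in MPI-2 LPS. Tk1 fell with LPS in MPI-2 (log2 -1.26 ± 0.24, adjusted p = 0.00162) and did not pass in BMM (-0.45 ± 0.24, adjusted p = 0.197), and the LPS arrays lay below the mock arrays in MPI-2 but overlapped them in BMM. A second probe set of Tk1 gave LPS changes of -0.48 in BMM and -1.72 in MPI-2, and differences between the cell types of 1.54 in mock and 0.31 in LPS. The call of Tk1 between the cell types in mock was lost after quantile normalization (0.69). A change that missed the threshold with all 12 arrays passed it for Tk1 in BMM without BMM mock array 2 or BMM LPS array 1 (-0.72) and Tyms in MPI-2 without BMM mock array 1 (0.56).

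The chromatin genes were higher in MPI-2 without LPS in 3 of 3 cases, from log2 1.91 ± 0.12 for Chaf1a (adjusted p = 5.54e-09) to 2.65 ± 0.14 for Uhrf1 (adjusted p = 4.91e-10). Chaf1a and Chaf1b encode subunits of the assembly factor that places histones on new DNA, and Uhrf1 brings the maintenance methyltransferase to it. With LPS 0 of 3 passed in BMM (limma, 1 of 3 lower at an unadjusted p under 0.05), and 2 of 3 fell in MPI-2. Of genes above background 24.5% fell in BMM and 15.5% in MPI-2. Chaf1a gave 4.16, 4.13 and 4.00 in BMM mock, 3.89, 3.74 and 3.65 in BMM LPS, 6.19, 5.84 and 6.00 in MPI-2 mock and 5.46, 5.32 and 5.42 in MPI-2 LPS. For Chaf1a, every LPS array lay below every mock array in both, and the fall passed in MPI-2 (log2 -0.61 ± 0.12, adjusted p = 0.00274) but not in BMM (-0.33 ± 0.12, adjusted p = 0.0606). Chaf1b gave 4.59, 4.39 and 5.0 in BMM mock, 4.62, 3.71 and 4.68 in BMM LPS, 6.81, 6.61 and 6.65 in MPI-2 mock and 6.85, 6.69 and 6.84 in MPI-2 LPS. Neither estimate for Chaf1b passed (log2 -0.33 ± 0.22 in BMM and 0.10 ± 0.22 in MPI-2, adjusted p = 0.311 and 0.88), and the LPS and mock arrays overlapped in both. Uhrf1 gave 4.61, 4.68 and 4.51 in BMM mock, 4.30, 4.67 and 4.25 in BMM LPS, 7.18, 7.42 and 7.13 in MPI-2 mock and 6.72, 6.46 and 6.61 in MPI-2 LPS. LPS lowered Uhrf1 in MPI-2 (log2 -0.65 ± 0.14, adjusted p = 0.00389), and the LPS arrays lay below the mock arrays in MPI-2 but overlapped them in BMM. The estimate for Uhrf1 in BMM did not pass (-0.20 ± 0.14, adjusted p = 0.347). Calls that appeared when 1 array was left out were Chaf1a in BMM without BMM LPS array 1 (-0.40).

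All 4 E2F genes fell with LPS in MPI-2 (15.5% of genes above background). In BMM 2 fell and 1 rose (24.5% and 14.3% of genes above background). E2f1 and E2f2 encode activators of the G1/S genes, and E2f7 and E2f8 atypical members that repress them. Without LPS 4 of 4 were higher in MPI-2, from log2 1.09 ± 0.19 for E2f1 (adjusted p = 2.38e-04) to 2.18 ± 0.16 for E2f2 (adjusted p = 2.92e-08). E2f1 gave 5.26, 5.04 and 4.94 in BMM mock, 5.24, 4.34 and 4.40 in BMM LPS, 6.17, 6.09 and 6.24 in MPI-2 mock and 5.63, 5.52 and 5.56 in MPI-2 LPS. E2f1 fell with LPS in MPI-2 (log2 -0.60 ± 0.19, adjusted p = 0.0447) and did not pass in BMM (-0.42 ± 0.19, adjusted p = 0.123), and the LPS arrays lay below the mock arrays in MPI-2 but overlapped them in BMM. E2f2 gave 5.01, 5.0 and 4.77 in BMM mock, 4.25, 3.99 and 4.23 in BMM LPS, 7.12, 7.31 and 6.89 in MPI-2 mock and 5.76, 5.13 and 5.40 in MPI-2 LPS. The fall of E2f2 with LPS was -0.77 ± 0.16 in BMM (adjusted p = 0.00216) and -1.68 ± 0.16 in MPI-2 (adjusted p = 3.09e-06), and every LPS array lay below every mock array in both. The fall of E2f2 in MPI-2 was the largest of the 46 genes in that cell type. E2f7 gave 5.38, 5.40 and 5.76 in BMM mock, 4.79, 5.22 and 4.92 in BMM LPS, 7.21, 6.98 and 7.07 in MPI-2 mock and 6.34, 6.21 and 6.26 in MPI-2 LPS. LPS lowered E2f7 in BMM (log2 -0.54 ± 0.14, adjusted p = 0.0102) and in MPI-2 (-0.82 ± 0.14, adjusted p = 7.74e-04), and every LPS array lay below every mock array in both. E2f8 gave 5.97, 5.71 and 6.49 in BMM mock, 7.39, 7.77 and 7.05 in BMM LPS, 8.31, 8.30 and 8.01 in MPI-2 mock and 7.66, 7.27 and 7.73 in MPI-2 LPS. E2f8 rose with LPS in BMM (log2 1.35 ± 0.21, adjusted p = 1.41e-04) and fell in MPI-2 (-0.65 ± 0.21, adjusted p = 0.0481), and the LPS arrays lay above the mock arrays in BMM and below them in MPI-2. E2f8 was the only member called in opposite directions in the 2 cell types, and its LPS arrays in BMM overlapped those of MPI-2 LPS. The call of E2f7 in BMM was lost without BMM mock array 3 (-0.41) and in a fit of the 2 groups alone, after cyclic loess or after quantile normalization (-0.54 to -0.28). The call of E2f1 in MPI-2 was lost without BMM mock arrays 2 and 3 in turn, MPI-2 mock arrays 1, 2 and 3 in turn or MPI-2 LPS arrays 1, 2 and 3 in turn (-0.64 to -0.56) and after cyclic loess, after quantile normalization or with a trended prior variance (-0.60 to -0.40). The call of E2f8 in MPI-2 was lost without MPI-2 mock arrays 1, 2 and 3 in turn, BMM LPS array 1 or MPI-2 LPS arrays 1, 2 and 3 in turn (-0.75 to -0.51). Leaving out 1 array added calls for E2f1 in BMM without BMM LPS array 1 (-0.71).

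The LPS responses differed between the cell types for 8 of the 46 members. The difference of responses, MPI-2 minus BMM, was above 0 for 6 (7.08% of all genes) and below 0 for 2 (6.27% of all genes), with a median of -0.09 against -0.02 over all genes. These are 13% and 4.35% of the members. Of the 12030 genes above background, fitted alone, 1423 were above 0 and 1223 below. The members thus passed about as often as genes at large. After cyclic loess 4 were above and 5 below 0, after quantile normalization 5 and 5, and 4 were below 0 when BMM mock replicate 1 or MPI-2 mock replicate 3 was left out. The 6 above 0 had fallen further in BMM than in MPI-2: Cdt1 (1.22 ± 0.23, adjusted p = 0.00213), Rrm2 (1.18 ± 0.26, adjusted p = 0.00655), Orc6 (0.85 ± 0.16, adjusted p = 0.00204), Mcm3 (0.82 ± 0.22, adjusted p = 0.0229), Gins3 (0.79 ± 0.24, adjusted p = 0.0425) and Mcm7 (0.64 ± 0.16, adjusted p = 0.013). The 2 below 0 were E2f2 (-0.91 ± 0.23, adjusted p = 0.0146), which fell in both cell types and further in MPI-2, and E2f8 (-2.0 ± 0.30, adjusted p = 2.28e-04), which rose in BMM and fell in MPI-2. By role, the 6 comprised 2 of 7 helicase, 2 of 4 licensing, 1 of 5 helicase partner and 1 of 4 nucleotide supply genes, and 0 of 6 clamp, 0 of 9 polymerase, 0 of 4 strand and 0 of 3 chromatin genes passed (limma; 3, 2, 0 and 1 at an unadjusted p under 0.05). The call of Mcm3 for the difference of responses was lost without BMM mock array 2, MPI-2 mock arrays 2 and 3 in turn or MPI-2 LPS arrays 1 and 3 in turn (0.75 to 0.82) and after cyclic loess (0.69). The call of Gins3 for the difference of responses was lost without BMM mock arrays 1 and 3 in turn, MPI-2 mock arrays 1, 2 and 3 in turn, BMM LPS arrays 1 and 2 in turn or MPI-2 LPS arrays 1, 2 and 3 in turn (0.58 to 0.83) and after cyclic loess, after quantile normalization or with a trended prior variance (0.66 to 0.84). The call of Mcm7 for the difference of responses was lost with a trended prior variance (0.64). The call of Rrm2 for the difference of responses was lost after quantile normalization (0.97). A difference that missed the threshold with all 12 arrays passed it for Mcm4 without BMM LPS array 3 (0.82), Gins1 without MPI-2 mock array 3 (-0.70), Rfc3 without BMM mock array 2 or MPI-2 mock array 3 (-0.66 to -0.64), Pold2 without BMM mock array 1 (-0.74), Pold3 without BMM LPS array 1 (-0.78), Rrm1 without BMM mock array 1 or BMM LPS array 3 (0.94 to 0.96) and Tk1 without BMM mock array 1 (-1.02).

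**Figure D4:**
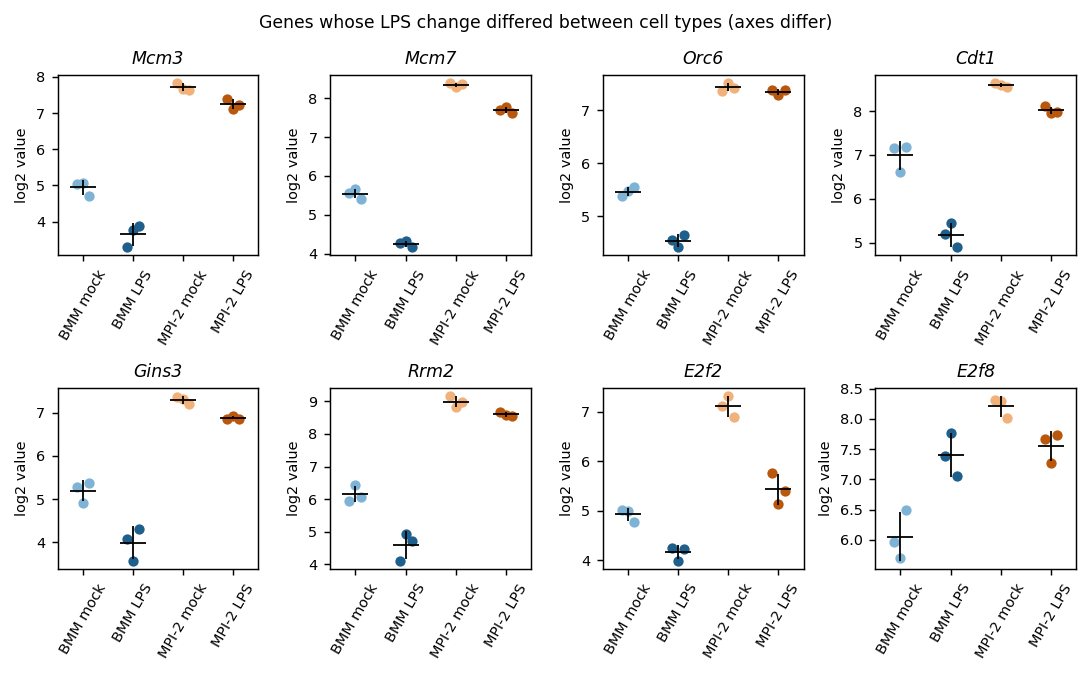
Log2 value of each array (points) in the 4 groups for the 8 members whose LPS responses differed between the cell types, with the group mean and SD (n = 3) in black. E2f8 rises in BMM and falls in MPI-2, with a difference of responses of -2.0.

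The other genes of these pathways were counted from lists of 47 replication, 14 further E2F and pocket protein, 17 G1 control and 30 mitosis genes, of which 45, 14, 16 and 29 were measured. Without LPS, 36 of 45 replication genes were higher in MPI-2 and 2 lower, and 8 of 14 E2F and pocket protein genes higher and 0 lower. Of the G1 genes 10 of 16 were higher and 3 lower, and 29 of 29 mitosis genes were higher. Over all genes 20.6% were higher and 18% lower. At an unadjusted p under 0.05, 1 E2F or pocket protein gene was lower. With LPS in both, the counts were 35 higher and 4 lower, 9 and 0, 10 and 3, and 29 and 0 (22.5% and 21.6% of all genes). Of the E2F and pocket protein genes and of the mitosis genes, 0 were lower at an unadjusted p under 0.05. LPS in BMM gave 4 higher and 18 lower, 1 and 5, 2 and 9, and 2 and 12 in the same order of lists. Over all genes these shares were 10.3% and 15.4%. LPS in MPI-2 gave 2 and 14, 1 and 4, 1 and 9, and 1 and 8 (5.17% and 9.58% of all genes). The difference of responses was above 0 for 6, 0, 2 and 5 genes and below 0 for 3, 2, 3 and 1. Over all genes 7.08% were above 0 and 6.27% below. No list was tested against these shares.

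Among the other replication genes, MPI-2 exceeded BMM without LPS for Ticrr (3.29 ± 0.18, adjusted p = 7.63e-10), an origin firing factor, and Top2a (3.11 ± 0.18, adjusted p = 1.22e-09), a topoisomerase. LPS in BMM lowered Dnmt1 (-1.82 ± 0.14, adjusted p = 1.11e-07), the maintenance methyltransferase, and Dna2 (-1.82 ± 0.15, adjusted p = 2.25e-07), a flap nuclease, and raised Asf1a (1.64 ± 0.20, adjusted p = 1.56e-05), a histone chaperone. The pocket protein gene Rb1 fell in BMM (-1.31 ± 0.29, adjusted p = 0.00305), as did Tfdp1, the partner of E2F factors (-1.12 ± 0.16, adjusted p = 8.52e-05). In MPI-2 the falls with the largest size among E2F and pocket protein genes were those of Mybl2 (-1.15 ± 0.19, adjusted p = 5.84e-04) and Tfdp2 (-1.01 ± 0.14, adjusted p = 8.24e-05). Of the cyclins that drive G1, Ccnd2 was higher in MPI-2 without LPS (log2 6.46 ± 0.14, adjusted p = 7.33e-14) and rose with LPS in BMM (2.84 ± 0.14, adjusted p = 7.48e-10). Ccnd1 fell in BMM (-1.95 ± 0.23, adjusted p = 8.11e-06) and in MPI-2 (-1.30 ± 0.23, adjusted p = 8.38e-04), and Ccnd3 fell in MPI-2 (-1.96 ± 0.18, adjusted p = 2.04e-06). The kinase gene Cdk4 fell in BMM (-1.44 ± 0.13, adjusted p = 7.11e-07), and Cdkn1b, an inhibitor of cyclin-dependent kinases, rose in MPI-2 (0.99 ± 0.12, adjusted p = 2.26e-05). Among mitosis genes, Bub1, a checkpoint kinase, was higher in MPI-2 without LPS (log2 4.08 ± 0.20, adjusted p = 2.16e-10). Cenpa, which encodes the histone variant of centromeres, fell with LPS in BMM (-2.56 ± 0.13, adjusted p = 8.89e-10) and in MPI-2 (-1.14 ± 0.13, adjusted p = 1.69e-05). Mki67, a marker of dividing cells, rose in BMM (1.66 ± 0.13, adjusted p = 1.60e-07), and its estimate in MPI-2 did not pass (0.03 ± 0.13, adjusted p = 0.958).

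**Figure D5:**
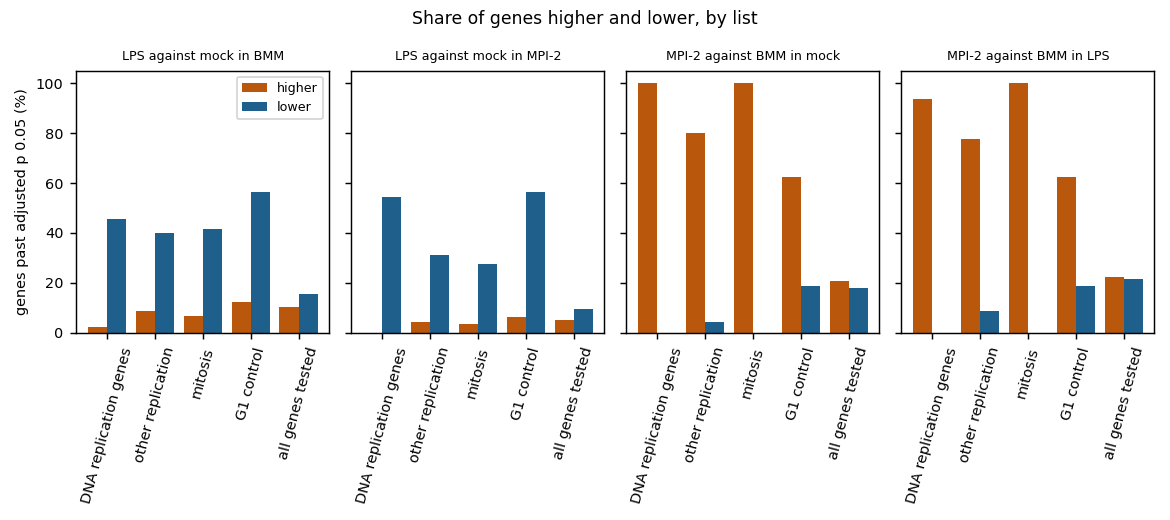
Percent of genes called higher or lower (y axis) in each comparison for the 46 members, 3 of the other lists (replication, mitosis, G1 control) and all 19937 genes. In MPI-2 54.3% of the members fell with LPS, and 9.58% of all genes.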

How the data were processed

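Newly synthesized RNA was measured on 12 whole-transcript arrays, 3 per group, from 200 ng of RNA. The deposited values are log2 expression values per probe set. RMA and the package affy are named, per the submitters' processing notes; versions and number of runs: not given in the sources used here. Although RMA includes a step that equalizes probe distributions, the deposited arrays differed in median (3.60 to 3.79) and spread, so changes depend on the scaling. Of 34760 probe sets 21640 name 1 gene and 1321 several, and the former gave 19937 genes. With limma 3.58.1 under R 4.3.3, 1 model of the 4 groups covered the 12 arrays (8 residual degrees of freedom, 6.99 added by the empirical Bayes step), and p-values were adjusted by Benjamini-Hochberg over 19937 genes. The fit was tested on simulated data. No 2 arrays were identical. The precision is limited by the number of arrays. Members, lists and the naming rule were chosen with earlier results of these data known. Array values are given for the members past the threshold with the largest changes (up to 8 per direction and comparison), the largest and smallest of each role, and those whose responses differed; other lists name at most 4 genes for each comparison, by size of change. The alternatives were 2 further scalings, array weights, a variance trend, a filter at background, means of probe sets, fits of 2 groups, a replicate block and leaving out arrays.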

Additional observations from a re-analysis of the deposited data

Results flagged for a closer look

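For 8 members the LPS responses of the 2 cell types differed by limma's test of the difference itself, with Benjamini-Hochberg adjustment over all genes. In log2, MPI-2 minus BMM, the differences were Mcm3 0.82, Mcm7 0.64, Orc6 0.85, Cdt1 1.22, Gins3 0.79, Rrm2 1.18, E2f2 -0.91 and E2f8 -2.0. Of the members 13% were above 0 and 4.35% below, against 7.08% and 6.27% of all genes. Among 12030 genes above background, fitted alone, 1423 were above 0 and 1223 below. The set was thus not set apart by the number of its members that passed. The call was lost in 13 alternatives for Gins3, in 6 for Mcm3 and in 1 each for Mcm7 and Rrm2. The cause of the 8 differences was not tested.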

How the results depend on the processing

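No call of the 46 members reversed under the alternatives run. In every alternative, BMM kept 16 of its 22 LPS calls and MPI-2 kept 14 of 25; 4 of 8 differences of responses were kept, and between the cell types 43 of 46 calls in mock and 41 of 43 in LPS. After cyclic loess, 4 members were called higher and 15 lower with LPS in BMM, the medians became -0.22 in BMM, -0.43 in MPI-2, 1.79 between the cell types in mock and 1.66 in LPS, and 5 differences of responses were below 0. After quantile normalization the medians were -0.44 in MPI-2, 1.80 in mock and 1.79 in LPS, and 5 differences were below 0. With array weights, 1 member was called higher and 33 lower in MPI-2 with LPS, 18 were called lower in BMM, and 4 differences were below 0. The differences of Mcm4 and Rrm1 then also passed above 0. In fits of the 2 groups alone, 1 was called higher and 33 lower in MPI-2, and 16 lower in BMM. The fit of all 4 groups uses 1 spread per gene. By group, the median SD of the members was 0.19 in BMM mock, 0.24 in BMM LPS, 0.12 in MPI-2 mock and 0.09 in MPI-2 LPS. With replicate 1 of BMM mock and replicate 3 of BMM LPS both left out, 1 was called higher in MPI-2 and 4 differences were below 0. The differences of Mcm4, Pola1 and Rrm1 then also passed above 0, and Rfc4 passed as a fall in BMM. Leaving out each array in turn, 1 to 2 were called higher in BMM, 0 to 1 in MPI-2, and 2 to 4 differences were below 0. The falls in BMM numbered 19 to 22. In MPI-2 18 fell without MPI-2 mock replicate 1 and 26 without BMM mock replicate 1. Without MPI-2 LPS replicate 2, MPI-2 lost the falls of Cdc6, Cdt1, Rfc3, Prim1, Pold2, Pole, E2f1 and E2f8. The differences above 0 lost Mcm3 and Gins3 without MPI-2 mock replicate 2, and gained Mcm4 and Rrm1 without BMM LPS replicate 3. The cause of these shifts was not tested, and the fit of only 2 groups cannot give the difference of responses. By the numbers of the titles, mock and LPS arrays of the same number did not deviate together in every pair (r of 0.24, -0.09 and -0.01 in BMM, and 0.05, -0.15 and -0.09 in MPI-2), which misses the rule for pairing. The descriptions number the MPI-2 mock arrays otherwise and share 2 numbers with MPI-2 LPS (r of -0.03 and 0.11). The block and the array names use the titles. The replicate block gave 1 higher and 22 lower in BMM, 0 and 24 in MPI-2, 6 and 2 differences, and 46 and 43 higher between the cell types; with it Mcm5 passed in BMM and E2f8 missed the threshold in MPI-2. By the titles, not every sample correlated best with its own number. Genes near or under the background level of 3.36 limit what the arrays can show.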

Other observations

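Outside the 46, 2 genes of the deoxynucleotide pool, chosen after their values were seen, moved in opposite directions in the cell types. Samhd1 gave 8.37, 9.12 and 8.97 in BMM mock, 10.00, 10.01 and 9.50 in BMM LPS, 8.39, 8.46 and 8.29 in MPI-2 mock and 6.14, 6.00 and 6.46 in MPI-2 LPS. Samhd1 encodes a hydrolase that degrades deoxynucleotides. It rose with LPS in BMM (log2 1.01 ± 0.19, adjusted p = 8.51e-04) and fell in MPI-2 (-2.18 ± 0.19, adjusted p = 1.19e-06), with a difference of responses of -3.19 ± 0.27 (adjusted p = 1.08e-06). Dck gave 5.48, 6.24 and 6.25 in BMM mock, 7.26, 7.52 and 7.50 in BMM LPS, 6.76, 6.63 and 6.76 in MPI-2 mock and 5.68, 5.25 and 5.50 in MPI-2 LPS. Dck, which encodes the kinase that salvages deoxycytidine, rose in BMM (log2 1.44 ± 0.18, adjusted p = 2.06e-05) and fell in MPI-2 (-1.24 ± 0.18, adjusted p = 1.94e-04), with a difference of -2.68 ± 0.26 (adjusted p = 3.86e-06). For both, the LPS arrays lay above the mock arrays in BMM and below them in MPI-2.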
